A study of Homo sapiens with 26 samples.

Results

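The anti-apoptotic BCL2 family was taken as the 5 genes BCL2, BCL2L1, MCL1, BCL2A1 and BCL2L2, picked out by gene symbol from 63129 genes of the expression table. RNA had been sequenced from 26 libraries, 2 for each of 13 groups, of 2 established human cancer lines. A375 is a melanoma line and NOMO-1 an acute myeloid leukaemia line. CPI203 is a small-molecule inhibitor of the BET bromodomain proteins, which bind acetylated chromatin and help transcription to proceed, and DMSO is its solvent. The question addressed is how the survival genes stand in parental cells and in cells derived from them that tolerate BET inhibition.

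The A375 groups were parental cells, clone 1 and clone 4, each taken untreated at 0 h, after 6 h in DMSO and after 6 h in 1 uM CPI203. The NOMO-1 groups were parental and tolerant cells, each after 24 h in DMSO or 1 uM CPI203, with no untreated arm. The clones are single isolates that the sample names call resistant, and the tolerant NOMO-1 cells are likewise labelled as a resistant clone, so a difference from the parental line is one measured in those isolates. How the tolerant cells were derived, and whether they were kept in CPI203 until the experiment, is not given in the sources used here. Nothing in the labels says that the 2 libraries of a group came from separate cultures, so the spread behind the p-values is that between libraries and may be purely technical.

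Cells commit to mitochondrial apoptosis when the effectors BAX and BAK form pores in the outer mitochondrial membrane and cytochrome c is released. The anti-apoptotic proteins hold the effectors and the BH3-only proteins that activate them, and they differ in which BH3-only proteins they bind. MCL1 and BCL2A1 bind NOXA, which PMAIP1 encodes, while BCL2, BCL-xL (from BCL2L1) and BCL-w (from BCL2L2) bind BAD. MCL1 is a short-lived protein with a short-lived mRNA, BCL2A1 is a target of NF-kB and, in melanocytes, of the lineage factor MITF, and BCL2 is a survival gene of many blood cancers.

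On hg19, the build of the table, MCL1 (ENSG00000143384) lies at chr1:150547032-150552066 and BCL2L1 (ENSG00000171552) at chr20:30252255-30311792. BCL2A1 (ENSG00000140379) lies at chr15:80253231-80263788, BCL2 (ENSG00000171791) at chr18:60790579-60987361 and BCL2L2 (ENSG00000129473) at chr14:23767999-23780968. BCL2L2 has a read-through neighbour, BCL2L2-PABPN1, with a row of its own and sequence in common, so the division of reads between them is uncertain.

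Promoter sequence from RefSeq on GRCh38.p14 was found for 3 of the 5 genes, BCL2A1, BCL2L1 and BCL2, and was not found for MCL1 and BCL2L2. The 250 bases before each start of BCL2A1 and BCL2L1 are shown because these genes differed most, in opposite directions, between tolerant and parental cells. The exception was NOMO-1 under CPI203, where BCL2 differed by 1.22 and BCL2L1 by 1.05. All are read on the minus strand, 5′ to 3′, at chr15:79971197-79971446 for BCL2A1, at chr20:31723964-31724213 for the first BCL2L1 start and at chr20:31722869-31723118 for the second. Capitals mark matches to TATAAA, the TATA box, or to CATGTG, a core that MITF can bind.
BCL2A1: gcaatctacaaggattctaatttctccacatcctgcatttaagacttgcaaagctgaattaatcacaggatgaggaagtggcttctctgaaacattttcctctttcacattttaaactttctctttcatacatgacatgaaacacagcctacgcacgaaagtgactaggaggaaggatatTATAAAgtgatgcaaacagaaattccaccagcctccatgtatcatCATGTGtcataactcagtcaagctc
BCL2L1, first start: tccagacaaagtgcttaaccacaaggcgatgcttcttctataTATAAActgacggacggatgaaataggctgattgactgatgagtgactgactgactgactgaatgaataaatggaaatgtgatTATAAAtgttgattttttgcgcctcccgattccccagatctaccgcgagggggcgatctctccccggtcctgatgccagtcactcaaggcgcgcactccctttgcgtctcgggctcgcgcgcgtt
BCL2L1, second start: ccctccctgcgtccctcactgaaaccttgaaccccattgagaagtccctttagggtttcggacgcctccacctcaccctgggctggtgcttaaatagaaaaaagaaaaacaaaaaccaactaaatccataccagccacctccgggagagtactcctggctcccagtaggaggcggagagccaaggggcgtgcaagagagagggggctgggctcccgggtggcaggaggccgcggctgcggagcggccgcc

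The TATA box, the MITF core CATGTG, its palindromic relative CACGTG and, by name, the NF-kB consensus were searched on both strands, and none of the matches in these windows overlapped another. The BCL2A1 window held CATGTG 25 to 20 bases before the start and TATAAA 70 to 65 bases before it. CATGTG occurred in 9.42% of the 35116 promoter windows of that length, TATAAA in 10.7%, CACGTG in 6.34% and the NF-kB consensus in 9.96%. The first BCL2L1 window held TATAAA at 208 to 203 and at 125 to 120 bases before the start, and the second window held none of the motifs. The BCL2A1 window was poor in CpG, with 2 CpG dinucleotides and 38.8% GC, and 14.7% of windows had fewer. The BCL2L1 windows had 17 and 12 CpG with 50.0% and 60.4% GC, and the BCL2 window, at chr18:63319770-63320019, had 24 CpG with 70.0% GC. The median window held 11 CpG and 58.0% GC. These matches are descriptions of letters and not of binding.

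Values are FPKM, read fragments scaled to transcript length and library size, as estimated by the authors, so levels of different genes can be set side by side per length. FPKM summed to 501933 to 637916 per A375 library and 417391 to 488682 per NOMO-1 library, read depth is unknown, and no 2 libraries held identical values. Replicates lay farthest apart in parental DMSO, clone 4 DMSO and clone 4 CPI203, where the median absolute log2 difference between the 2 libraries was 0.218, 0.280 and 0.220 against 0.0658 to 0.118 in the other A375 groups. In each of these groups 1 library stood apart in earlier results of these data, replicate 1 of parental DMSO, replicate 1 of clone 4 DMSO and replicate 2 of clone 4 CPI203. Results that changed without the 3 are given beside the result or in the closing part. Leaving the 3 out leaves 1 library in each of these groups and takes the widest replicate differences out of the shared spread. A call that passes only that way is therefore not added support. Without the 3 libraries the log2 ratio of MCL1 to BCL2L1 in DMSO differed from parental cells by -2.45 in clone 1 and -2.06 in clone 4. In A375, 4 of 7 melanoma markers reached 1 FPKM; SOX10, a neural crest factor, ranged from 136 to 312 FPKM over the groups, MITF from 4.01 to 15.7, and TYR was listed at 0. In NOMO-1, 7 of 8 myeloid markers reached 1 FPKM, and their sum over libraries ran from 145 to 1840.

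MCL1 was the most abundant of the 5 mRNAs in every group of both lines, and which gene came second differed between populations. In untreated parental A375 cells MCL1 stood at 240.7 and 249.6 FPKM in the 2 libraries, followed by BCL2A1 at 20.4 and 21.5, BCL2L1 at 16.1 and 16.5, BCL2L2 at 12.5 and 12.9 and BCL2 at 0.782 and 1.06. In untreated clone 1, MCL1 was at 98.7 and 92.4 FPKM and BCL2L1 came second at 57.8 and 59.7. In untreated clone 4, MCL1 was at 129 and 119 FPKM and BCL2L1 at 77.9 and 80.2. BCL2A1 had become the fourth of 5 in both clones, with 1.45 and 1.25 FPKM in clone 1 and 1.92 and 1.89 in clone 4. BCL2L1 was second in all 6 groups of clone cells and in parental DMSO cells, and BCL2A1 was second in untreated and CPI203-treated parental cells.

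In NOMO-1 parental cells in DMSO the order was MCL1 at 60.9 and 64.5 FPKM, BCL2A1 at 24.7 and 20.3, BCL2 at 17.7 and 21.1, BCL2L2 at 10.6 and 10.9 and BCL2L1 at 9.26 and 8.94. The libraries of BCL2A1 and BCL2 overlapped there. In tolerant NOMO-1 cells in DMSO, MCL1 at 36.2 and 37.7 FPKM was followed by BCL2L1 at 25.8 and 24.9 and BCL2 at 25.7 and 23.2, whose libraries overlapped. BCL2A1 was last, at 1.14 and 1.18 FPKM. BCL2 reached 5.96 FPKM or more in every NOMO-1 library and 2.45 or less in every A375 library, so the groups of the 2 lines did not overlap.

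**Figure D1:**
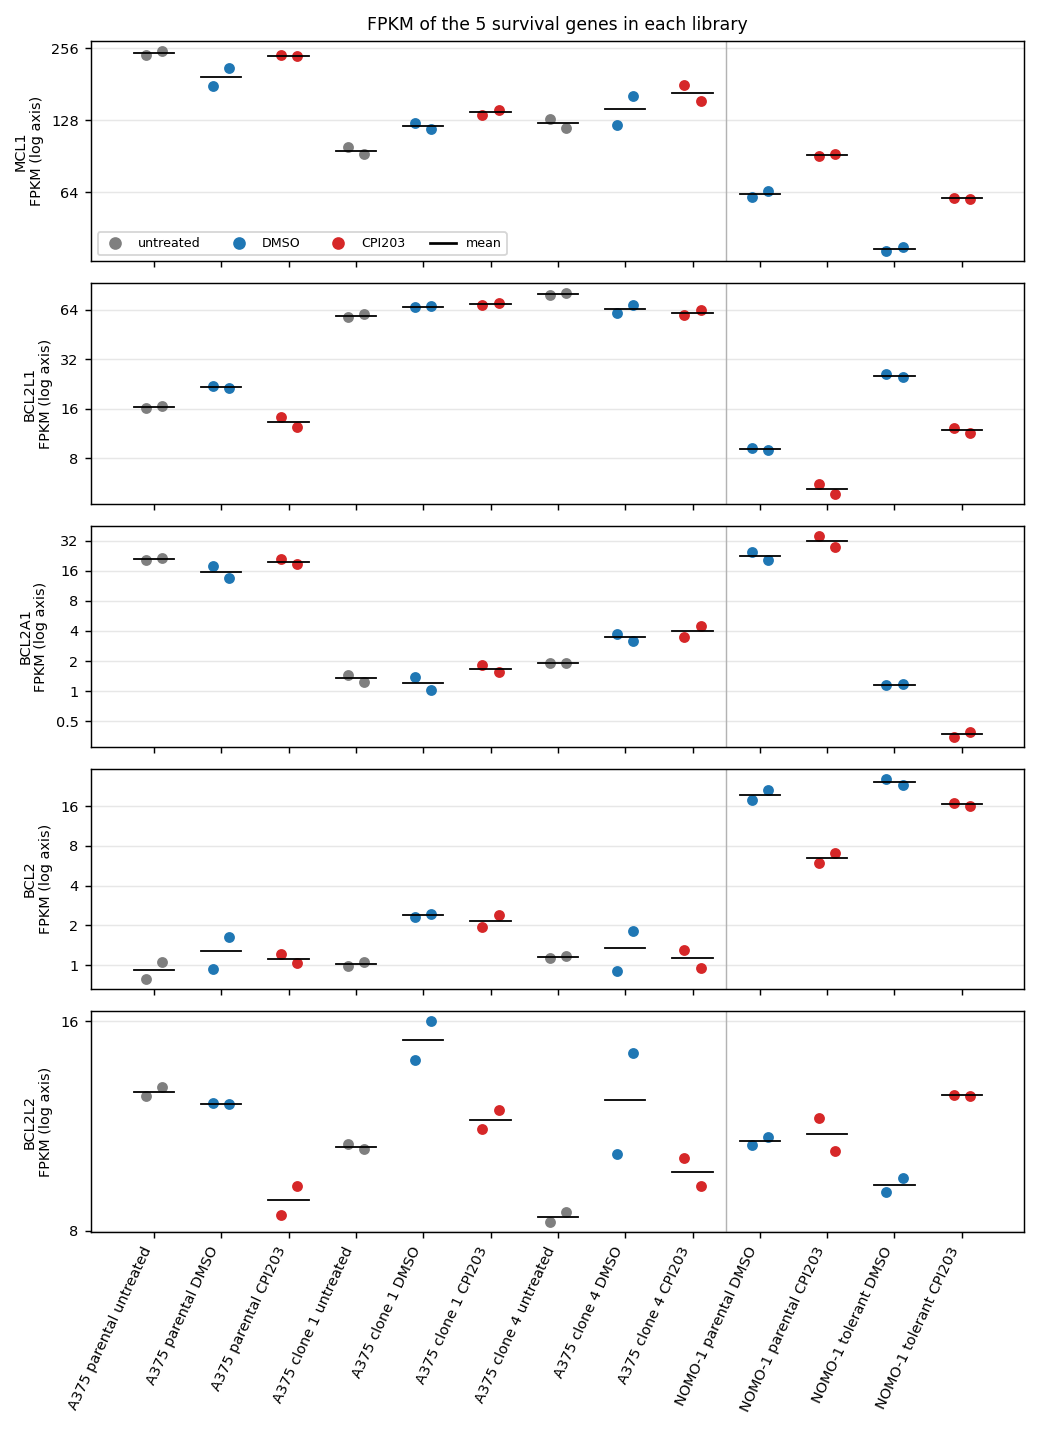
FPKM of the 5 genes in each of the 26 libraries, on log2 axes that differ between genes; points are libraries, coloured by treatment, and the line is the mean of 2. BCL2L1 lies at 57.8 FPKM or more in all 12 clone libraries and at 21.9 or less in the 6 parental A375 libraries, and BCL2A1 shows the opposite order.

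Ranked by group means, MCL1 was highest in untreated parental A375 cells and lowest in tolerant NOMO-1 cells in DMSO, with 37.0 FPKM on average. The 3 parental A375 groups held the first places for MCL1, but the libraries of parental DMSO overlapped with those of clone 4 CPI203, and 166 FPKM in clone 4 CPI203, 142 in clone 4 DMSO and 138 in clone 1 CPI203 were likewise not separated from their neighbours. BCL2L1 was highest in untreated clone 4, with a mean of 79.1 FPKM, and lowest in NOMO-1 parental cells under CPI203, with 5.20. BCL2L2 was the least variable of the 5, between 8.23 and 16.0 FPKM over all 26 libraries. BCL2 in A375 ranged from 0.782 to 2.45 FPKM, near the filter of 1 FPKM, where a fold on the log2(FPKM + 1) scale understates the change.

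The balance was described as the share of each gene in the summed FPKM of the 5, which does not depend on the scaling of a library; shares and ratios are descriptions and were not tested. In parental A375 cells MCL1 made up 82.8% ± 0.0536 (SD, n = 2) of the sum when untreated, 79.2% ± 2.94 in DMSO and 84.7% in CPI203. In the clones its share was 57.1% to 68.4% over the 6 groups. BCL2L1 made up 4.73% to 8.83% in the parental groups, 31.1% to 35.2% in clone 1 and 25.4% to 36.8% in clone 4. The BCL2A1 share was 6.45% to 7.08% in parental cells, 0.580% to 0.805% in clone 1 and 0.888% to 1.66% in clone 4. The summed FPKM itself was 296 ± 7.79 in untreated parental cells, 167 ± 3.29 in clone 1 and 215 ± 5.21 in clone 4, so the sum was lower in the untreated clones as well as differently composed. In DMSO the sums were 245 ± 19.5, 207 ± 3.53 and 224 ± 35.8, and the clone 4 libraries, at 198 and 249, overlapped with the parental ones at 232 and 259.

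In NOMO-1 the shares were spread over more genes. Parental cells in DMSO had 50.4% MCL1, 18.1% BCL2A1, 15.6% BCL2, 8.65% BCL2L2 and 7.31% BCL2L1. Tolerant cells in DMSO had 38.0% MCL1, 26.1% BCL2L1, 25.1% BCL2, 9.58% BCL2L2 and 1.19% BCL2A1. Under CPI203 the MCL1 share was 62.8% in parental and 59.4% in tolerant cells, and the BCL2 share was 4.46% and 16.2%. The sums were 124 ± 1.92 in parental DMSO, 146 ± 5.21 in parental CPI203, 97.3 ± 1.06 in tolerant DMSO and 102 ± 1.37 in tolerant CPI203.

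**Figure D2:**
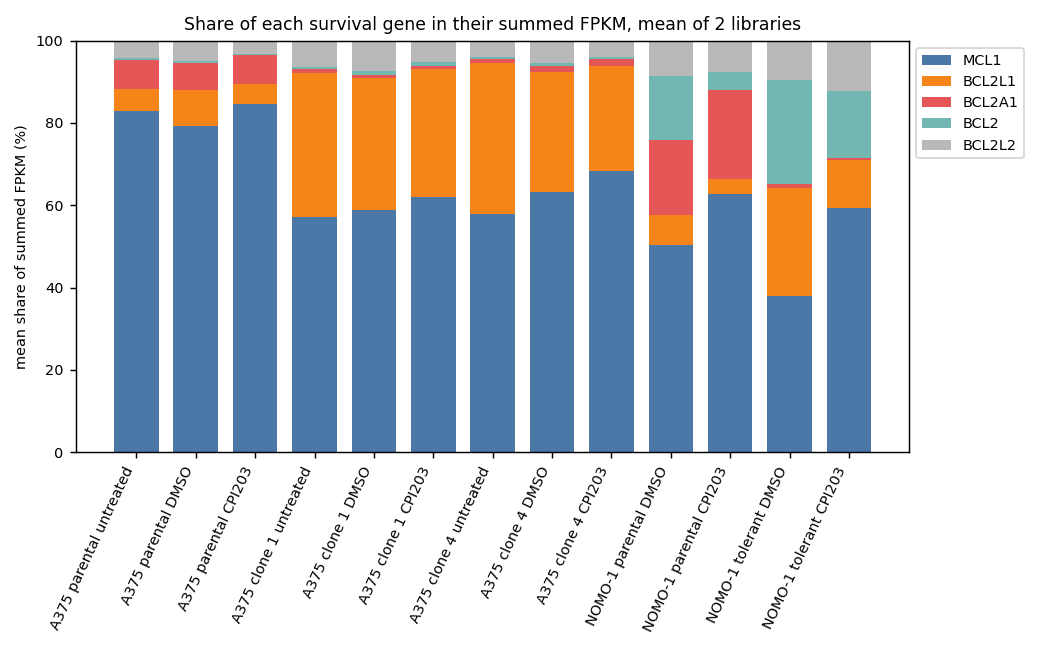
Share of each of the 5 genes in their summed FPKM (percent, mean of 2 libraries) for the 13 groups. The MCL1 share is 82.8% in untreated parental A375 cells and 57.1% and 57.8% in the untreated clones, where the BCL2L1 share is 35.2% and 36.8%.

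MCL1 mRNA stood 15.0 times above BCL2L1 mRNA in untreated parental A375 cells as a geometric mean, 9.0 times in DMSO and 17.9 times in CPI203. In clone 1 the ratio was 1.63, 1.82 and 2.0, and in clone 4 it was 1.57, 2.18 and 2.7 in the same order. In DMSO the log2 ratio differed from that of parental cells by -2.30 in clone 1 and by -2.04 in clone 4, so that the ratio itself was 0.203 and 0.243 of the parental one. NOMO-1 tolerant cells in DMSO had a ratio of 1.46 against 6.89 in parental cells, a log2 difference of -2.24 or 0.212 of the parental ratio. In all 3 comparisons every library of one group lay apart from every library of the other. The ratio of BCL2A1 to BCL2L1 was 1.29 in untreated parental A375 cells and 0.0229 and 0.0241 in the untreated clones, and 2.46 and 0.0458 in parental and tolerant NOMO-1 cells in DMSO.

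**Figure D3:**
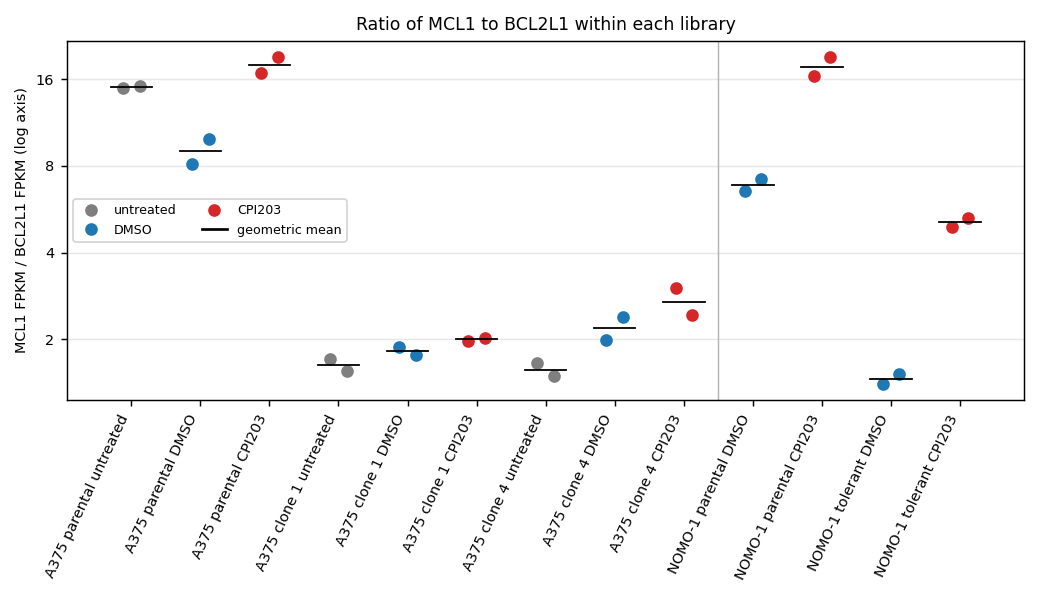
Ratio of MCL1 to BCL2L1 FPKM in each of the 26 libraries, on a log axis, with the geometric mean of each group as a line. The clone and tolerant DMSO libraries lie below the parental ones of the same line, and in both NOMO-1 populations the CPI203 libraries lie above the DMSO libraries.

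In tolerant cells, compared with parental cells of the same line and treatment, BCL2L1 was higher and MCL1 and BCL2A1 were lower in all 8 comparisons. The tests were limma fits across all genes with Benjamini-Hochberg adjustment, on log2(FPKM + 1), and comparisons that use the same parental libraries are not independent. In DMSO, BCL2L1 stood at 21.9 and 21.2 FPKM in parental A375 cells, 66.3 and 66.8 in clone 1 and 61.3 and 67.8 in clone 4. The log2 change was 1.58 ± 0.08 (SE; adjusted p = 1.57e-08) in clone 1 and 1.54 ± 0.08 (adjusted p = 1.57e-08) in clone 4. In untreated cells it was 1.79 ± 0.08 and 2.21 ± 0.08, and under CPI203 it was 2.30 ± 0.08 and 2.13 ± 0.08. Without the 3 libraries that stood apart, BCL2L1 was higher by 1.60 and 1.63 in DMSO and by 2.08 in clone 4 under CPI203. In NOMO-1 it was 1.38 ± 0.09 (adjusted p = 1.51e-06) in DMSO and 1.05 ± 0.09 (adjusted p = 9.01e-06) under CPI203. No parental library overlapped with a tolerant one for BCL2L1 in any of the 8 comparisons.

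On the log2(FPKM + 1) scale BCL2A1 changed by more than the other 4 genes in each of these comparisons except clone 4 under CPI203. There the size of the BCL2L1 change was larger, at 2.13. The addition of 1 FPKM shrinks the change of a gene as low as BCL2A1 in tolerant cells. Mean FPKM in clone 4 and parental cells under CPI203 were 4.00 and 19.8 for BCL2A1 and 61.4 and 13.3 for BCL2L1, so by these means the BCL2A1 fold was the larger. Parental A375 cells in DMSO held 17.9 and 13.4 FPKM, clone 1 1.37 and 1.03, and clone 4 3.73 and 3.19. BCL2A1 fell by 2.91 ± 0.14 on the log2 scale in clone 1 (adjusted p = 1.1e-08) and by 1.89 ± 0.14 in clone 4 (adjusted p = 4.98e-07). Untreated clones differed by -3.23 ± 0.14 and -2.92 ± 0.14, and clones under CPI203 by -2.96 ± 0.14 and -2.06 ± 0.14. Without the 3 libraries that stood apart, the BCL2A1 changes were -2.72 and -1.78 in DMSO and -2.21 in clone 4 under CPI203. In NOMO-1 the difference was -3.44 ± 0.14 in DMSO (adjusted p = 5.45e-08) and -4.57 ± 0.14 under CPI203 (adjusted p = 1.2e-08), where the tolerant libraries held 0.349 and 0.390 FPKM against 35.7 and 27.8.

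MCL1 in DMSO stood at 179 and 211 FPKM in parental A375 cells, 125 and 118 in clone 1 and 122 and 162 in clone 4. MCL1 fell by 0.67 ± 0.13 in clone 1 (adjusted p = 0.00161) and by 0.46 ± 0.13 in clone 4 (adjusted p = 0.0146). The clone 4 call was lost without clone 4 DMSO replicate 1, one of the libraries that stood apart (-0.26), without parental DMSO replicate 2 (-0.34), and when only the compared libraries entered the fit (adjusted p = 0.347); with all 3 libraries that stood apart left out it passed (-0.38, adjusted p = 0.00282). Untreated clones were lower by 1.35 ± 0.13 and 0.98 ± 0.13, and under CPI203 the changes were -0.78 ± 0.13 and -0.52 ± 0.13. The clone 4 call under CPI203 was lost without clone 4 CPI203 replicate 2, another library that stood apart (-0.41, adjusted p = 0.0756), and passed without all 3 (adjusted p = 0.000552). In NOMO-1, MCL1 fell by 0.75 ± 0.07 in DMSO (adjusted p = 1.45e-05) and by 0.60 ± 0.07 under CPI203.

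BCL2 was higher in tolerant NOMO-1 cells by 1.22 ± 0.11 under CPI203 (adjusted p = 1.35e-05), with 16.9 and 16.0 FPKM against 5.96 and 7.05. In DMSO the difference was 0.32 ± 0.11 (adjusted p = 0.0327), and the call was lost without parental DMSO replicate 1 (0.20) or without tolerant DMSO replicate 1 (0.25) or 2 (0.39). Clone 1 had 2.31 and 2.45 FPKM of BCL2 in DMSO against 0.941 and 1.64 in parental cells, a change of 0.58 ± 0.18 (adjusted p = 0.0319). That call was lost without parental DMSO replicate 1 (0.36; the same value passed at adjusted p = 0.0493 without all 3 libraries that stood apart), without either clone 1 DMSO library and with only the compared libraries. Under CPI203 the change in clone 1 was 0.57 ± 0.18 (adjusted p = 0.0357), and it was lost without any 1 of its 4 libraries. In clone 4 BCL2 differed from parental cells by 0.17 or less in the 3 arms, with no call. After the length and GC correction BCL2 passed in both untreated clones, at 0.27 in clone 1 (adjusted p = 0.0397) and 0.40 in clone 4 (adjusted p = 0.00483). BCL2L2 passed in 1 of the 8 comparisons, untreated clone 4, where it fell by 0.55 ± 0.13 (adjusted p = 0.00273). In clone 1 the BCL2L2 values of 0.35 under CPI203, 0.28 in DMSO and -0.24 untreated did not pass, and without the 3 libraries that stood apart the values were the same. The CPI203 value passed after quantile normalization, the length and GC correction and with only the compared libraries. The DMSO value passed after the length and GC correction (0.33), and the untreated value with only the compared libraries.

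Of the 5 genes, 4 passed for clone 1 in DMSO and under CPI203 and 3 in untreated cells, where 25.2%, 24.6% and 48.1% of all genes tested passed. For clone 4, 3 passed in DMSO, 3 under CPI203 and 4 in untreated cells, against 31.4%, 29.7% and 51.1% of all genes. In NOMO-1, 4 passed in DMSO and 4 under CPI203, where 64.4% and 66.3% of all genes did. The median change of all genes was within 0.12 of 0 on the log2 scale in each of these comparisons, and it was -0.117 and -0.0791 in the untreated clones before any rescaling. After quantile normalization those medians were 0.0304 and 0.0505, and the directions of BCL2L1, MCL1 and BCL2A1 held.

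**Figure D4:**
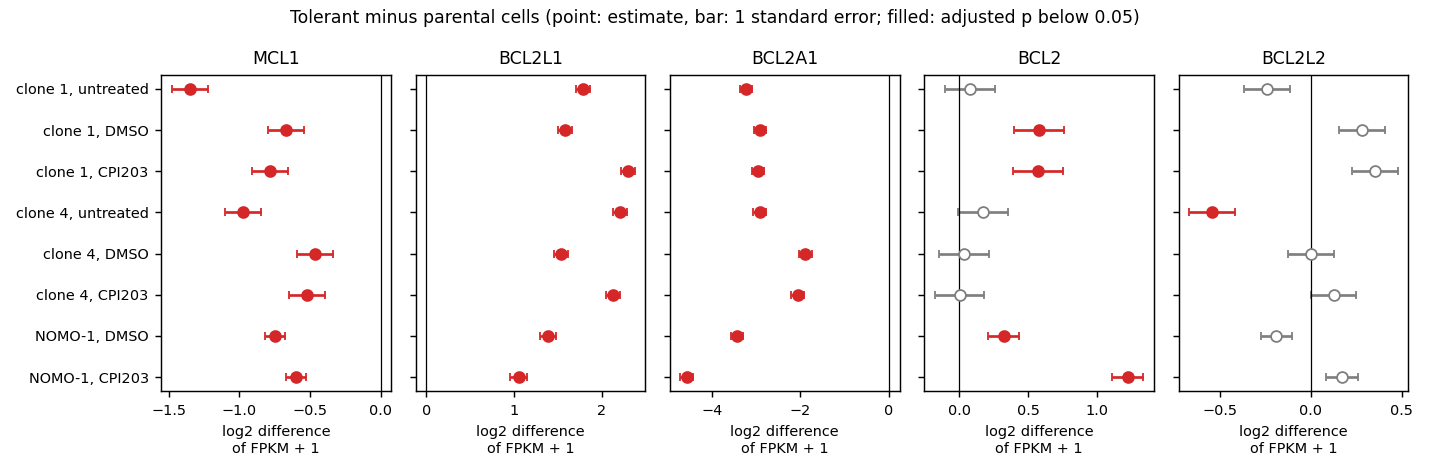
Log2 difference of FPKM + 1 between tolerant and parental cells for each gene in the 8 comparisons (point, estimate; bar, 1 SE; filled points passed at an adjusted p below 0.05; the x axes differ between genes). All 8 BCL2L1 points lie above 0, and all 8 MCL1 and BCL2A1 points lie below it.

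Other features of the cells moved with these differences, and their part in the result was not tested. MITF fell by 1.13 ± 0.21 in clone 4 in DMSO (adjusted p = 0.00129), with mean FPKM of 4.01 against 10.2, and it was called lower in clone 4 under CPI203 as well (adjusted p = 0.000284). In clone 1 MITF was lower than in parental cells by 0.72 ± 0.21 under CPI203 (adjusted p = 0.0266). It differed by -0.34 ± 0.21 in DMSO and by -0.55 ± 0.21 untreated (adjusted p = 0.0506), without passing. From DMSO to CPI203, MITF rose by 0.62 ± 0.21 in parental A375 cells (adjusted p = 0.0388). The same change was 0.24 in clone 1 and 0.34 in clone 4, with no call. SOX10 stood at 304 FPKM in parental and at 202 and 197 in clone 1 and clone 4 DMSO cells. CD33, a myeloid surface protein, was at 0.209 to 0.848 FPKM in the parental A375 groups and at 20.6 to 29.7 in the clone groups, while PTPRC, the pan-leukocyte antigen, had group means of 0.0770 or less and MPO was listed at 0. Of 5 epithelial markers 2 reached 1 FPKM in A375, and the sum of the list ran from 93.5 to 254 FPKM over libraries; KRT18, a keratin, was at 90.9 FPKM in parental DMSO cells and at 119 and 146 in the clones. Fibroblast and endothelial markers summed to 0.914 FPKM or less in every A375 library, and lymphoid markers to 0.146 or less. In NOMO-1, PTPRC was at 49.9 FPKM in parental and 0.976 in tolerant DMSO cells, LYZ, which encodes lysozyme, at 1438 and 44.6, and MPO, the granule peroxidase, at 21.1 and 397. CD33 stood at 67.4 and 75.1 there, and CD3D, a T-cell receptor component, at 10.6 and 83.0. In bulk RNA, a change in the cells that make up a sample and a change of mRNA within each cell cannot be told apart.

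CPI203 for 6 h lowered BCL2L1 and BCL2L2 in parental A375 cells, and no call was made for MCL1, BCL2A1 or BCL2. BCL2L1 stood at 21.9 and 21.2 FPKM in DMSO and at 14.2 and 12.4 in CPI203, so the libraries did not overlap, and the change was -0.66 ± 0.08 (adjusted p = 5.04e-05). BCL2L2 went from 12.2 and 12.2 to 8.42 and 9.27 FPKM, a change of -0.42 ± 0.13 (adjusted p = 0.0189). The BCL2L2 call was lost without parental DMSO replicate 1 (-0.42, adjusted p = 0.0707), without parental DMSO replicate 2, without parental CPI203 replicate 1 (-0.36), and with only the compared libraries (adjusted p = 0.0531); it passed without all 3 libraries that stood apart (-0.42, adjusted p = 0.00345). MCL1 was at 179 and 211 FPKM in DMSO and 239 and 236 in CPI203, a difference of 0.29 ± 0.13 (adjusted p = 0.0926). It passed without parental DMSO replicate 2 (0.41, adjusted p = 0.0481), after median-ratio scaling (0.34, adjusted p = 0.0473) and after a correction for length and GC content (0.31, adjusted p = 0.00462). BCL2A1 differed by 0.33 ± 0.14 (adjusted p = 0.0928) and passed at 0.53 without parental DMSO replicate 1, which stood apart. In all, 2 of the 5 genes passed, where 36.4% of all genes did.

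In the clones no gene of the 5 passed under CPI203, where 22.0% of all genes passed in clone 1 and 23.6% in clone 4. BCL2L1 was at 66.3 and 66.8 FPKM in DMSO and 67.9 and 70.2 in CPI203 in clone 1, a change of 0.05 ± 0.08. In clone 4 it was at 61.3 and 67.8 and at 59.5 and 63.2, overlapping, with a change of -0.07 ± 0.08. MCL1 differed by 0.18 ± 0.13 in clone 1 and by 0.23 ± 0.13 in clone 4, and passed in both after the length and GC correction (0.24 in each). It also passed in clone 1 with only the compared libraries (adjusted p = 0.039), and in clone 4 without clone 4 DMSO replicate 2 (0.44). Without clone 4 DMSO replicate 1, which stood apart, the clone 4 difference was 0.03 (adjusted p = 0.895), and without all 3 it was 0.14 (adjusted p = 0.196). BCL2L2 differed by -0.35 ± 0.13 in clone 1 (adjusted p = 0.0643), with 14.1 and 16.0 FPKM in DMSO and 11.2 and 11.9 in CPI203, and by -0.30 ± 0.13 in clone 4. With the 3 libraries that stood apart left out, BCL2L2 differed by -0.35 in clone 1 and by -0.46 in clone 4. MCL1 and BCL2A1 then differed by 0.18 and 0.29 in clone 1. Calls were made in both clones in that setting, and in clone 1 also after quantile normalization, as counted in the closing part.

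The change of BCL2L1 under CPI203 differed between parental and clone cells by a test of the difference itself. It was 0.71 ± 0.12 higher in clone 1 (adjusted p = 0.00549) and 0.59 ± 0.12 higher in clone 4 (adjusted p = 0.0159), and it was the only one of the 5 that passed in either, where 1.91% and 2.29% of all genes did. The clone 1 call held in every alternative run. The clone 4 call was lost without the 3 libraries that stood apart (0.45, adjusted p = 0.0739), without parental DMSO replicate 1 (0.57), parental CPI203 replicate 2 (0.50) or clone 4 CPI203 replicate 2 (0.55), and with only the compared libraries (adjusted p = 0.485). The other 4 genes differed by 0.17 or less between clones and parental cells, with SE of 0.18 to 0.25. The MCL1 to BCL2L1 ratio was 1.99-fold higher in CPI203 than in DMSO in parental cells, 1.09-fold higher in clone 1 and 1.24-fold higher in clone 4. These folds are relative to DMSO, and the parental ratio was 15.0 untreated at 0 h, 9.0 in DMSO and 17.9 in CPI203.

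CPI203 for 24 h changed 4 of the 5 genes in parental NOMO-1 cells and all 5 in tolerant cells, where 60.0% and 39.2% of all genes passed. MCL1 went from 60.9 and 64.5 to 91.1 and 92.4 FPKM in parental cells, a rise of 0.54 ± 0.07 (adjusted p = 0.000172). In tolerant cells it went from 36.2 and 37.7 to 60.4 and 60.2 FPKM, a rise of 0.69 ± 0.07 (adjusted p = 8.02e-05). BCL2L1 fell by 0.71 ± 0.09 in parental (adjusted p = 0.000185) and by 1.04 ± 0.09 in tolerant cells (adjusted p = 3.76e-05), where it went from 25.8 and 24.9 to 12.3 and 11.4 FPKM. No DMSO library overlapped with a CPI203 library for either gene.

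BCL2 fell by 1.44 ± 0.11 in parental NOMO-1 cells (adjusted p = 9.28e-06), from 17.7 and 21.1 to 5.96 and 7.05 FPKM. In tolerant cells it fell by 0.54 ± 0.11 (adjusted p = 0.00498), from 25.7 and 23.2 to 16.9 and 16.0 FPKM. BCL2A1 rose by 0.47 ± 0.14 in parental cells (adjusted p = 0.0149), from 24.7 and 20.3 to 35.7 and 27.8 FPKM, and fell by 0.66 ± 0.14 in tolerant cells (adjusted p = 0.0047), from 1.14 and 1.18 to 0.349 and 0.390. At such levels the addition of 1 FPKM shrinks the change, which was -1.43 for BCL2A1 in tolerant cells with 0.1 added instead. The rise in parental cells was lost without parental CPI203 replicate 1 (0.30, adjusted p = 0.132) or parental DMSO replicate 2 (0.34, adjusted p = 0.075). BCL2L2 rose by 0.39 ± 0.09 in tolerant cells (adjusted p = 0.00678), from 9.10 and 9.52 to 12.6 and 12.5 FPKM, and that call was lost without tolerant DMSO replicate 1 (0.36). In parental cells BCL2L2 differed by 0.03 ± 0.09.

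The CPI203 effect differed between tolerant and parental NOMO-1 cells for BCL2, by 0.90 ± 0.16 (adjusted p = 0.00318), and for BCL2A1, by -1.13 ± 0.19 (adjusted p = 0.00251), where 31.8% of all genes passed; with 0.1 FPKM added in place of 1 the BCL2A1 difference was -1.91. For BCL2L1 the difference of -0.33 ± 0.13 (adjusted p = 0.0822) and for BCL2L2 that of 0.36 ± 0.12 (adjusted p = 0.0524) did not pass, and both passed after the length and GC correction (-0.41 and 0.35). The MCL1 to BCL2L1 ratio was 2.57-fold higher in CPI203 than in DMSO in parental and 3.5-fold higher in tolerant cells. The BCL2A1 to BCL2L1 ratio was 6.07 in parental and 0.0312 in tolerant cells under CPI203. Treatment lasted 6 h in A375 and 24 h in NOMO-1, so the effects in the 2 lines are given side by side and not compared.

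**Figure D5:**
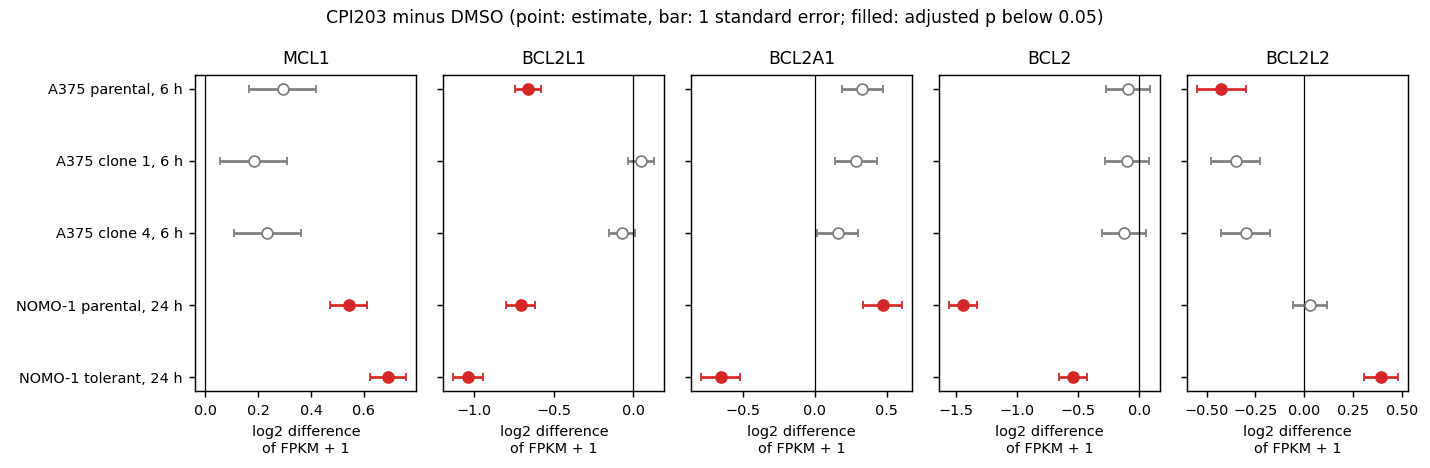
Log2 difference of FPKM + 1 between CPI203 and DMSO for each gene in the 5 populations (point, estimate; bar, 1 SE; filled points passed at an adjusted p below 0.05; the x axes differ between genes). BCL2L1 lies at -0.66 in parental A375 cells and at 0.05 and -0.07 in the clones, and MCL1 lies above 0 in all 5 populations but passed in NOMO-1 alone.

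The DMSO libraries of A375 were taken at 6 h and the untreated ones at 0 h, so solvent, time and handling cannot be told apart. In parental cells BCL2L1 was 0.38 ± 0.08 higher in DMSO (adjusted p = 0.00529), with 16.1 and 16.5 FPKM untreated; the call was lost with only the compared libraries (adjusted p = 0.0856). It was 1 of the 5 genes that passed, where 22.5% of all genes did. In clone 1, BCL2 was higher by 0.74 ± 0.18 (adjusted p = 0.00514), BCL2L2 by 0.47 ± 0.13 (adjusted p = 0.00917) and MCL1 by 0.34 ± 0.13 (adjusted p = 0.0457), where 43.2% of all genes passed. The MCL1 call was lost without any 1 of the 4 libraries, after quantile normalization (0.25) and after median-ratio scaling (0.15), and the BCL2L2 call after median-ratio scaling (0.29) and without clone 1 DMSO replicate 2 (0.38). In clone 4, BCL2A1 was higher by 0.62 ± 0.14 (adjusted p = 0.00487) and BCL2L2 by 0.49 ± 0.13 (adjusted p = 0.00768), and BCL2L1 was lower by 0.29 ± 0.08 (adjusted p = 0.0131), where 41.3% of all genes passed. The BCL2L1 call in clone 4 was lost without clone 4 DMSO replicate 1 (-0.22), without clone 4 untreated replicate 2 (-0.27) and with only the compared libraries, and the BCL2L2 call without clone 4 untreated replicate 1 (0.47) and with only the compared libraries. The median of all genes was itself higher in DMSO by 0.147 in clone 1 and 0.111 in clone 4.

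The 2 clones were compared with each other untreated and in DMSO, not under CPI203, and 1 gene passed in each of these arms. In DMSO, BCL2A1 was higher in clone 4 by 1.02 ± 0.14 (adjusted p = 0.000793), at 3.73 and 3.19 against 1.37 and 1.03 FPKM, where 10.2% of all genes passed. In untreated cells BCL2L1 was higher in clone 4 by 0.42 ± 0.08 (adjusted p = 0.00543), at 77.9 and 80.2 against 57.8 and 59.7 FPKM, where 10.8% of all genes passed. The first call was lost with only the compared libraries (adjusted p = 0.106) and the second without clone 4 untreated replicate 2 (adjusted p = 0.0522). MCL1 in untreated cells, at 129 and 119 FPKM in clone 4 and 98.7 and 92.4 in clone 1, differed by 0.37 ± 0.13 without passing. It passed after the length and GC correction (0.35, adjusted p = 0.00614) and with only the compared libraries. In DMSO, MCL1 differed by 0.21 ± 0.13 (adjusted p = 0.291) and passed after the length and GC correction (0.29, adjusted p = 0.0208). Without the 3 libraries that stood apart the DMSO difference was 0.41.

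The BH3-only genes encode the proteins that the survival proteins hold in check, and 6 of 8 were tested in A375 and 8 of 8 in NOMO-1. PMAIP1 rose under CPI203 in parental A375 cells by 1.79 ± 0.08 (adjusted p = 2.17e-08), from 11.6 to 42.6 FPKM on average, beside the fall of BCL2L1. It rose by 0.78 ± 0.08 in clone 1 and by 0.61 ± 0.08 in clone 4, and the effect was smaller than in parental cells by 1.00 ± 0.12 and by 1.18 ± 0.12 (adjusted p = 0.00057 and 0.000148). BCL2L11, which encodes BIM, rose in all 3 populations, by 0.72 ± 0.12 in parental cells, 0.69 ± 0.12 in clone 1 and 0.83 ± 0.12 in clone 4. In total 2 BH3-only genes rose and 2 fell in parental A375 cells, 2 rose and none fell in clone 1, and 2 rose and 1 fell in clone 4, of 6 tested, where 36.4%, 22.0% and 23.6% of all genes passed. In DMSO, PMAIP1 was higher than in parental cells by 1.03 ± 0.08 in clone 1 and 0.91 ± 0.08 in clone 4, and in tolerant NOMO-1 cells by 0.96 ± 0.10. BMF, a further BH3-only gene, rose under CPI203 by 1.93 ± 0.12 in parental NOMO-1 cells and by 1.01 ± 0.12 in tolerant cells. Of the 8 genes, 4 rose and 3 fell in parental NOMO-1 cells, where 60.0% of all genes passed. In tolerant cells BMF alone rose and 4 fell, where 39.2% of all genes passed. The BH3-only genes that fell under CPI203 in either line are not named here.

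Of the 3 effector genes BAX, BAK1 and BOK, none rose under CPI203 in any population. Of all genes, 36.4%, 22.0% and 23.6% passed in either direction in parental A375, clone 1 and clone 4, and 60.0% and 39.2% in parental and tolerant NOMO-1 cells. BAX fell in all 3 A375 populations, by 0.65 ± 0.17 in parental cells, 0.64 ± 0.17 in clone 1 and 0.74 ± 0.17 in clone 4. BAK1 fell by 0.57 ± 0.11 in parental NOMO-1 cells and BOK by 0.30 ± 0.09 in tolerant NOMO-1 cells. BAX was higher in clone 1 and clone 4 than in parental cells in DMSO by 0.93 ± 0.17 and 0.92 ± 0.17. BOK in clone 1 (0.50 ± 0.16) and BAK1 in clone 4 (0.40 ± 0.14) passed as higher there too, beside 25.2% and 31.4% of all genes. In untreated cells BAX and BOK were higher in both clones and BAK1 was lower in clone 1 by 0.51 ± 0.14, beside 48.1% and 51.1% of all genes. In tolerant NOMO-1 cells in DMSO, BAX was lower than in parental cells by 0.60 ± 0.12, beside 64.4% of all genes. In the same NOMO-1 comparison BAK1 was lower by 0.72 ± 0.11 and BOK higher by 0.81 ± 0.09. Of the 5 genes whose products control MCL1 protein turnover, 2 rose in parental A375 cells under CPI203, where 36.4% of all genes passed. None passed in clone 1 or clone 4, where 22.0% and 23.6% of all genes did. USP9X, a deubiquitinase of MCL1, rose by 0.85 ± 0.23 in parental A375 cells and by 1.06 ± 0.15 in parental and 0.68 ± 0.15 in tolerant NOMO-1 cells. Other genes of the list rose as well. MARCH5 rose by 0.44 ± 0.15 in parental A375 and by 0.46 ± 0.08 in parental NOMO-1 cells, where FBXW7 rose by 0.52 ± 0.10. BTRC rose by 0.36 ± 0.14 in parental and 0.54 ± 0.14 in tolerant NOMO-1 cells. In clone 1 and clone 4 USP9X differed by 0.42 and 0.57 without passing (adjusted p = 0.231 and 0.0914), and the difference from the parental effect did not pass in either (adjusted p = 0.779 and 0.948). MCL1 protein was not measured. Of 5 tested further relatives of BCL2, 2 rose in parental A375 cells under CPI203, 2 rose and 1 fell in clone 1, and 1 rose in clone 4, beside 36.4%, 22.0% and 23.6% of all genes.

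Among 11 tested genes for transcription factors of the survival genes, NFKB1, an NF-kB subunit, fell under CPI203 in all 3 A375 populations. The falls were 1.15 ± 0.09, 0.85 ± 0.09 and 0.81 ± 0.09, where 36.4%, 22.0% and 23.6% of all genes passed. NFKB1 was lower in the untreated clones than in untreated parental cells by 1.45 ± 0.09 and 1.23 ± 0.09, and in tolerant NOMO-1 cells in DMSO by 0.84 ± 0.08. STAT5A, a cytokine-signalling factor that acts upstream of BCL2L1 in blood cells, was lower in the untreated clones by 2.25 ± 0.14 and 2.28 ± 0.14. A part of NFKB1 or STAT5A in the levels of the survival genes was not tested. In the untreated clones 6 of 11 fell and none rose in each, and in tolerant NOMO-1 cells in DMSO 4 of 12 rose and 5 fell; 48.1%, 51.1% and 64.4% of all genes passed there. Downstream of the mitochondrion, APAF1 and CASP9, which form the apoptosome, were lower in tolerant NOMO-1 cells in DMSO by 2.12 ± 0.09 and 2.09 ± 0.14, and 1 of 7 genes of this list rose and 3 fell, beside 64.4% of all genes.

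Over the 9 A375 group means, genes with the pattern most like each of the 5 were taken by Pearson correlation of log2(FPKM + 1) among 10578 genes with a mean of 5 FPKM or more; the groups share libraries' scaling and clone identity, and the values are descriptions. For BCL2L1 these were SLFN11 (0.9876), AJUBA (0.9867) and ARHGEF28 (0.9845). For BCL2A1 they were ZNF697 (0.9849), NUMB (0.9834) and S100A1 (0.9818), and for MCL1 they were PCTP (0.9852), ZNF670 (0.9785) and again ZNF697 (0.9766). For BCL2 they were SOGA1 (0.9652), SMC2 (0.9599) and ZNF644 (0.949), and for BCL2L2 STAMBP (0.9838), PRR3 (0.9585) and TNPO2 (0.9543). S100A1 stood at 468 FPKM in untreated parental cells and at 1.71 and 3.49 in the untreated clones, and SLFN11 at 7.04, 25.8 and 33.8.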

How the data were processed

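RNA-seq libraries of 2 cell lines were analysed from the table of FPKM values that the authors deposited, 1 value per gene and library. Reads were aligned with TopHat 1.4.1 to hg19 and FPKM were estimated with Cufflinks, per the submitters' processing notes; no source used here gives strandedness or annotation. FPKM carry no counts, so depth is unknown and low values are the least precise. Groups were read from titles, also for the 4 untreated clone libraries, whose clone field calls them parental. All 26 value columns were mapped (0 unmapped).

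Values were tested as log2(FPKM + 1) with limma 3.58.1 in R 4.3.3 (trend and robust, 1 mean per group), for 18 A375 libraries (16935 genes) and 8 NOMO-1 libraries (16753 genes). The filter asked for 1 FPKM in 2 or more libraries, and the 36 genes with missing NOMO-1 values were left out there. Tests were two-sided with Benjamini-Hochberg adjustment over all genes, passing below 0.05, and were tested on simulated data. The members and lists were chosen with earlier results of these data known. Named genes were the 5, the 3 most alike genes for each, and up to 4 passing genes per list and comparison with the smallest adjusted p. Length and GC, from GENCODE, were known for 96.99% (A375) and 96.84% (NOMO-1) of genes. Alternatives were other pseudocounts, filters, scalings, fits and left-out libraries; the length and GC correction was added after seeing the data.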

Additional observations from a re-analysis of the deposited data

Results flagged for a closer look

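The response to CPI203 differed between populations for 3 of the 5 survival genes, in tests of the difference itself. BCL2L1 fell in parental A375 cells and was not called in either clone, so that its signed log2 change was higher by 0.714 in clone 1 and by 0.591 in clone 4 than in parental cells; the clone 4 difference was lost without the 3 libraries that stood apart. BCL2 fell in both NOMO-1 populations, and its change was 0.900 higher in tolerant than in parental cells. BCL2A1 rose in parental and fell in tolerant NOMO-1 cells, a difference of -1.13, with the tolerant libraries at 1.18 FPKM or less. No group had 4 or more libraries, so no single library could be tested as an outlier.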

How the results depend on the processing

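Of the 736 values of passing results recomputed under alternatives, 686 kept the call and 50 lost it; 59 values of results that had not passed did pass, and 53 changed sign without passing in either setting. No passing result changed direction. Moves of 1.5 times or less in the number of the 5 genes passing are not listed in full, and some are given beside the results. That number moved by more than 1.5 times, or from or to 0, as follows, and the cause was not tested. For clone 4 versus clone 1 in DMSO it went from 1 to 2 with the length and GC correction, 0 with only the compared libraries, 2 without the 3 libraries that stood apart and 1 to 3 with 1 replicate left out. For untreated clone 4 versus clone 1 it went from 1 to 2, 3 and 4 in the same settings and 0 to 1. For CPI203 in clone 1 it went from 0 to 1 with quantile normalization, 1 with the length and GC correction, 2 with only the compared libraries and 3 without the 3 libraries. For CPI203 in clone 4 it went from 0 to 1 with the length and GC correction, 1 without the 3 libraries and 0 to 1 with 1 replicate left out. For CPI203 in parental A375 it went from 2 to 1 with only the compared libraries and 1 to 2 with 1 replicate left out. For DMSO versus untreated it went from 3 to 1 with median-ratio scaling and 1 to 2 with 1 replicate left out in clone 1, from 3 to 1 with only the compared libraries, 5 without the 3 libraries and 2 to 3 with 1 replicate left out in clone 4, and from 1 to 2 with quantile normalization, 4 with the length and GC correction, 0 with only the compared libraries, 4 without the 3 libraries and 1 to 2 with 1 replicate left out in parental cells. For the clone 4 difference of effect it went from 1 to 0 with only the compared libraries, 0 without the 3 libraries and 0 to 1 with 1 replicate left out, and for the NOMO-1 difference from 2 to 4 with the length and GC correction and 2 to 3 with 1 replicate left out. The labels do not say that a replicate number marks a shared culture or day. Deviations of same-numbered libraries correlated at -0.729 to 0.721 over 36 A375 group pairs (10 over 0.1) and at 0.0184 to 0.386 over 6 NOMO-1 pairs (4 over 0.1), so that not every pair was above 0.1 in either line. With the replicate block, the NOMO-1 difference count went from 2 to 4, with BCL2L1 and BCL2L2 added (adjusted p = 0.0388 and 0.0365), and MCL1 in clone 1 DMSO versus untreated was lost (adjusted p = 0.0572). No balance result moved beyond its spread with a pseudocount of 1 in the ratio or after quantile normalization. Leaving out 1 of 2 libraries could not move a result that far, because the spread was taken from the same libraries. The share of all genes passing moved by more than 1.5 times without a filter in all 21 comparisons (1.07% to 35.8%) and with only the compared libraries in 12, for CPI203 in clone 4 from 23.6% to 0.157%, in clone 1 from 22.0% to 44.0%, for clone 4 versus parental in DMSO from 31.4% to 7.68%, and for clone 4 versus clone 1 in DMSO from 10.2% to 0.0847%. It also moved that far with 1 replicate left out in 12 comparisons (38 values, 0.91% to 36.9%), without the 3 libraries in 4 (4.55% to 44.8%), with the length and GC correction in 4 (2.98% to 18.4%) and with a pseudocount of 0.1 in 2 (0.85% and 1.02%). Unknown depth and 2 libraries per group limit all of these, and counts without the 3 libraries rest on groups of 1 library and a smaller shared spread.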
